A study of Danio rerio with 6 samples.

Results

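The comparison described here sets sibling zebrafish embryos injected with *gcn2* MO directly against sibling embryos injected with *perk* MO, so that 2 of the 6 RNA-seq libraries of the study were compared and no control library entered the ratios. Whole embryos were collected at 36 hours post-fertilization (hpf), with 1 library for each of 6 conditions. The siblings, labelled WT, came from the same litters as *tars*-/- embryos, which are homozygous for a nonsense allele of the gene for cytosolic threonyl-tRNA synthetase. Each genotype was left uninjected, injected with *gcn2* MO or injected with *perk* MO at the one-cell stage, and every embryo was kept in 1-phenyl-2-thiourea to block pigment. The siblings of a recessive cross can include heterozygous carriers, and neither their genotype make-up nor the number of embryos pooled per library was stated. The controls were uninjected, so any response to injection itself was not measured. Whether such a response was equal in the 2 libraries compared here is not known.

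Gcn2 and Perk are protein kinases that phosphorylate the translation initiation factor eIF2α. Gcn2 is activated by uncharged tRNA and opens the amino acid response (AAR), while Perk sits in the membrane of the endoplasmic reticulum (ER) and is 1 arm of the unfolded protein response (UPR). Phosphorylated eIF2α lowers general protein synthesis while favouring translation of a few mRNAs, among them those for Atf4 proteins, which in turn activate stress and amino acid genes. A morpholino (MO) is an antisense oligonucleotide that blocks translation or splicing of its target mRNA, so the level of the target mRNA need not fall when the protein does.

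Between the 2 injected sibling libraries, the *perk* MO library held more mRNA of the cell cycle inhibitor *cdkn1a*, of *mdm2*, of *ddit3*, *atf5b* and other AAR genes, of hatching gland proteases and of heat shock proteins. The *gcn2* MO library held more mRNA of neural progenitor and neuronal genes, of most listed ER chaperones and of some retina and pineal transcription factors, such as *atoh7*. Reads assigned to genes numbered 35379354 in the *gcn2* MO library and 29949451 in the *perk* MO library, within a range of 29949451 to 47516784 over the 6 libraries. Levels are given in CPM, the read count of a gene scaled by the total of its library. Log2 ratios were formed after addition of 0.5 CPM, and a ratio is written as *gcn2* MO over *perk* MO unless the sentence says otherwise. Of 29515 genes with any read, 19194 had an average level of 1 CPM or more across all 6 libraries and were kept. With 1 library per condition there is no spread between replicates to hold a difference against, and no p-value is given. The 95% intervals of single-gene ratios follow the exact Clopper-Pearson method and cover counting error only.

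Across the 19194 genes, 645 (3.36%) were at least 2-fold apart. Of these, 355 (1.85%) were higher with *gcn2* MO and 290 (1.51%) were higher with *perk* MO. With TMM scaling the split was 316 against 319, and with median-of-ratios scaling 326 against 310. Over all genes the median log2 ratio was 0.03, and the central 90% of genes lay between −0.65 and 0.72. A ratio above 0 was found for 53.3% of genes and a ratio below 0 for 46.7%. At least 4-fold differences were found for 52 genes (0.271%), 24 of them higher with *gcn2* MO (0.125%) and 28 higher with *perk* MO (0.146%). The share of reads taken by the 20 most abundant genes ranged from 14.4% to 16.2% over the 6 libraries, and that of mitochondrially encoded genes was 2.89% with *gcn2* MO against 2.63% with *perk* MO. The few reads on genes named as ribosomal RNA made up 0.00296% with *gcn2* MO against 0.00747% with *perk* MO in siblings, 0.00766% in *tars*-/- with *gcn2* MO and 0.00251% to 0.00261% in the other 3 libraries. The median log2 ratio was −0.03 in the fifth of genes with the shortest transcripts and 0.08 in the fifth with the longest. Among those shortest genes 69 were 2-fold higher with *gcn2* MO and 83 with *perk* MO, against 70 and 29 among the longest. The part of read composition and gene length in the results below was not tested.

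**Figure D1:**
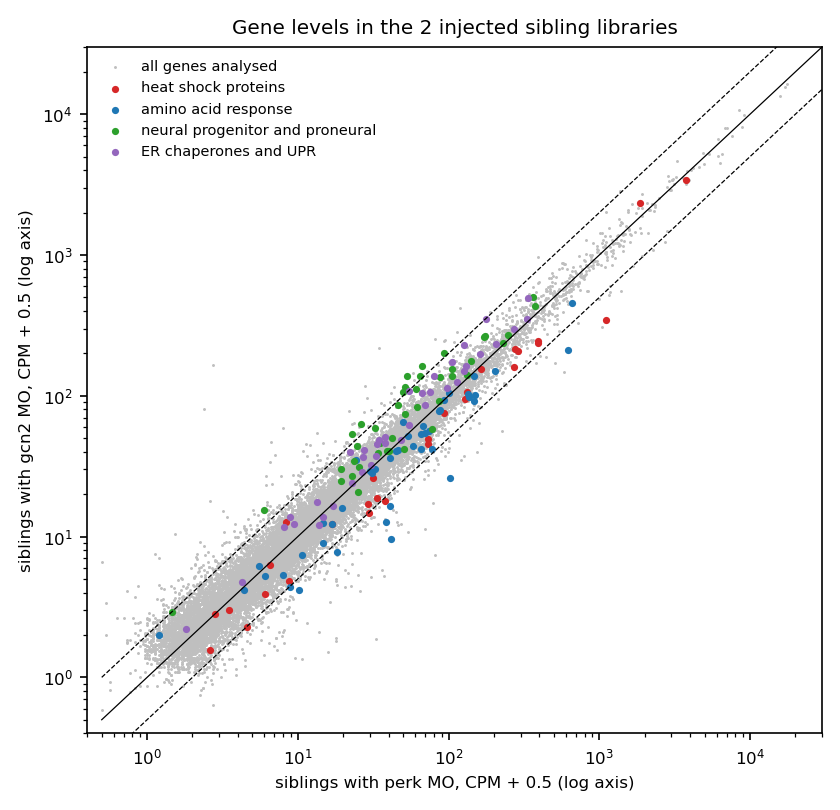
CPM of the 19194 analysed genes in the sibling *perk* MO library (x axis) and the sibling *gcn2* MO library (y axis), both with 0.5 CPM added and on log axes. The solid line marks equal levels and the dashed lines 2-fold differences. Genes of 4 lists are coloured: heat shock genes lie mostly below the line of equal levels, and neural progenitor genes mostly above it.

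The same 2 morpholinos can be compared in *tars*-/- embryos, in a pair of libraries that shares none with the sibling pair, and in that pair the differences pointed mostly the other way. There, 715 genes (3.73%) were at least 2-fold apart, 325 of them (1.69%) higher with *gcn2* MO and 390 (2.03%) higher with *perk* MO. Across the 19194 genes, the log2 ratios of the 2 pairs had a Pearson correlation of −0.63 and a Spearman correlation of −0.60. These values describe genes, which are not independent replicates, and all 6 libraries enter the abundance minimum. Of the 355 genes at least 2-fold higher with *gcn2* MO in siblings, 341 (96.1%) had a ratio of the opposite sign in *tars*-/-. In the opposite direction 122 (34.4%) were 2-fold apart, against 2.03% of all genes. None of the 355 was 2-fold higher with *gcn2* MO in both genotypes. Of the 290 genes at least 2-fold higher with *perk* MO in siblings, 258 (89.0%) had the opposite sign in *tars*-/-. In the opposite direction 144 (49.7%) were 2-fold apart, against 1.69% of all genes. In the same direction 6 (2.07%) were 2-fold apart, against 2.03% of all genes. The share of opposite signs over all 19194 genes was not counted. In all, 266 genes were 2-fold apart in opposite directions, which is 41.2% of the 645 genes of the sibling pair and 37.2% of the 715 genes of the *tars*-/- pair. With 1 library per condition, the genotype, the morpholino and the identity of a library cannot be told apart as the source of this crossing, and the difference between genotypes was not tested. The AAR genes did not cross as a list, with medians of −0.37 in siblings and −0.98 in *tars*-/-. The share of reads on genes named as ribosomal RNA was highest in siblings with *perk* MO and in *tars*-/- with *gcn2* MO, and its part in the crossing was not tested. The groups are named as the libraries were labelled.

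**Figure D2:**
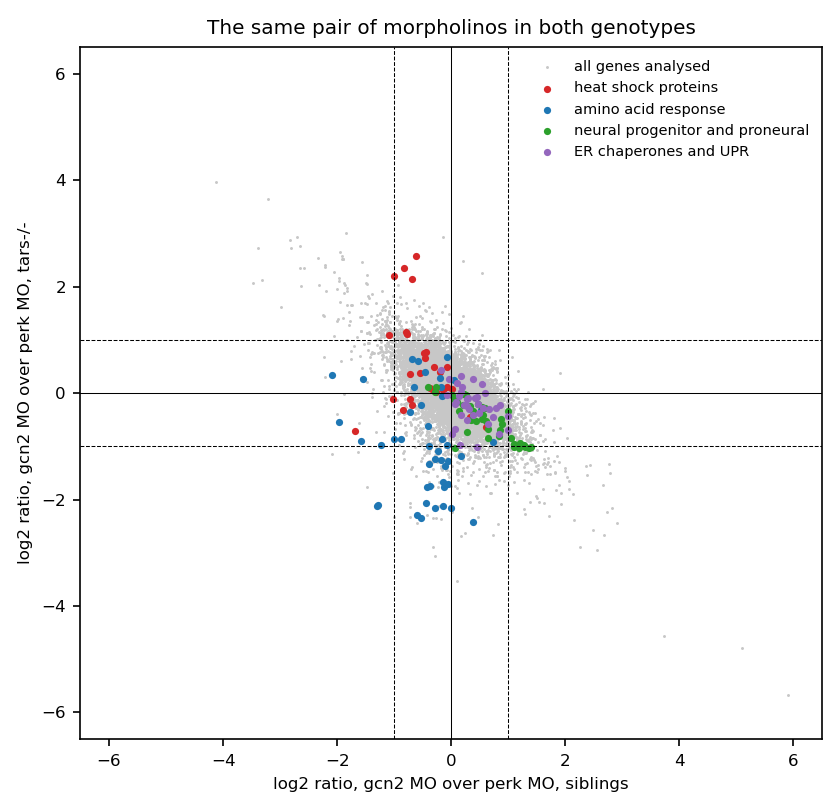
Log2 ratio of *gcn2* MO over *perk* MO in siblings (x axis) against the same ratio in *tars*-/- embryos (y axis), 1 point per gene, with 0.5 CPM added. Solid lines mark 0 and dashed lines 2-fold differences; most genes far from 0 lie in the upper left or lower right, while a group of AAR genes lies in the lower left.

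The mRNA of Perk differed little between the 2 libraries. *eif2ak3*, the Perk gene, had 45.6 CPM with *gcn2* MO, 37.5 CPM with *perk* MO and 45 CPM in uninjected siblings. It was thus lowest in the library labelled *perk* MO, where the level with *gcn2* MO was 1.21-fold higher (95% interval 1.12 to 1.31). Its levels in *tars*-/- embryos were 39.4 CPM uninjected, 46.9 CPM with *perk* MO and 39.6 CPM with *gcn2* MO, so the order of the 2 injected libraries was the reverse. Since a morpholino need not lower its target's mRNA, these levels do not check the labels. The Gcn2 gene could not be matched to an identifier and is not analysed here. *eif2ak1*, coding for the heme-regulated kinase Hri, was at 13.0 CPM with *gcn2* MO, 15.9 CPM with *perk* MO and 20.7 CPM in uninjected siblings. *eif2ak2*, coding for the RNA-activated kinase Pkr, was low, at 3.0 CPM with *gcn2* MO, 1.1 CPM with *perk* MO and 2.45 CPM in uninjected siblings. It was the only 1 of the 15 analysed genes around eIF2α that was 2-fold apart, against 3.36% of all genes. Its ratio was 2.72 (1.82 to 4.15).

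The eIF2α genes and *ppp1r15a* lay close to equal, and *ppp1r15b* was lower with *gcn2* MO. *eif2s1b*, 1 of a pair of eIF2α genes, was at 163 CPM with *gcn2* MO against 168 CPM with *perk* MO (log2 ratio −0.04), and *eif2s1a*, the other, at 52.5 and 58.7 CPM (−0.16). *ppp1r15a*, coding for the stress-induced subunit that directs a phosphatase to eIF2α, was at 18.4 CPM with *gcn2* MO, 18.9 CPM with *perk* MO and 30.3 CPM in uninjected siblings. *ppp1r15b*, the constitutive counterpart, was at 2.71 and 4.07 CPM, with a log2 ratio of −0.51. All 5 genes for eIF2B, the exchange factor that phosphorylated eIF2α inhibits, were lower with *gcn2* MO, with log2 ratios from −0.30 for *eif2b3* to −0.63 for *eif2b4*, which was at 42.3 CPM with *gcn2* MO against 65.9 CPM with *perk* MO. *impact*, whose product inhibits Gcn2, was at 11.1 and 10.1 CPM. *nck1a* and *nck1b*, genes for an adaptor protein that limits eIF2α phosphorylation in mammalian cells, had log2 ratios of −0.12 and −0.26. *tars* was at 68.1 CPM with *gcn2* MO, 95.9 CPM with *perk* MO and 71.6 CPM in uninjected siblings, so that it was 1.41-fold higher with *perk* MO (1.33 to 1.49). Mutant embryos had *tars* at 37.3 CPM uninjected, 33.9 CPM with *perk* MO and 21.3 CPM with *gcn2* MO, below every sibling library, and there too it was lower with *gcn2* MO.

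Several genes at least 2-fold higher with *perk* MO, picked here one by one and not as a list, code for regulators of the cell cycle and of growth arrest. *mdm2*, coding for a ubiquitin ligase, was at 55.8 CPM with *gcn2* MO, 226 CPM with *perk* MO and 28.1 CPM uninjected, a 4.05-fold higher level with *perk* MO (3.85 to 4.26). Its values in *tars*-/- were 34.0 CPM uninjected, 57.5 CPM with *perk* MO and 224 CPM with *gcn2* MO. The libraries with the most *mdm2* were thus the *perk* MO library of siblings and the *gcn2* MO library of *tars*-/-, and the other 4 were at or below 57.5 CPM. These 2 libraries also had the highest share of reads on ribosomal RNA genes. *cdkn1a*, coding for the cyclin-dependent kinase inhibitor p21, was at 10.8 CPM with *gcn2* MO, 69.5 CPM with *perk* MO and 2.65 CPM uninjected, a 6.42-fold higher level with *perk* MO (5.75 to 7.17). *phlda3*, whose product restrains Akt signalling in mammalian cells, was at 10.2, 53.2 and 5.97 CPM in the same order and 5.2-fold higher with *perk* MO (4.63 to 5.84). *ccng1*, coding for cyclin G1, was at 1236 CPM with *gcn2* MO, 2736 CPM with *perk* MO and 603 CPM uninjected. For each of *cdkn1a*, *phlda3*, *mdm2* and *ccng1* the *gcn2* MO library lay above the uninjected siblings and below the *perk* MO library. *sesn3*, a sestrin gene of stress responses, was at 37.0 CPM with *gcn2* MO, 93.5 CPM with *perk* MO and 34.0 CPM uninjected, so that here the *gcn2* MO library was close to the control. *foxo3b*, a forkhead factor gene, had a log2 ratio of −1.12 and *gadd45aa*, a growth arrest gene, −1.11, while the antiproliferative gene *btg2* went the other way, at 155 CPM with *gcn2* MO against 110 CPM with *perk* MO.

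Of 25 apoptosis genes 14 had a ratio below 0, the median was −0.18, and 3 were at least 2-fold higher with *perk* MO, against 1.51% of all genes, while 0 were 2-fold higher with *gcn2* MO. *bbc3*, coding for the BH3-only protein Puma, was at 4.35 CPM with *gcn2* MO against 17.5 CPM with *perk* MO, a ratio of 4.01 for *perk* MO over *gcn2* MO (3.35 to 4.83). The levels of *bbc3* in *tars*-/- were 15 CPM with *gcn2* MO against 15.2 CPM with *perk* MO, so this gene did not cross over as *mdm2* did. *casp8*, the initiator caspase of death receptor signalling, was at 7.18 and 25.8 CPM in the sibling pair. *baxa*, coding for the pore-forming protein Bax, was at 43.0 and 89.3 CPM under 1 of the 2 gene identifiers that carry this symbol. In the other direction *bida*, coding for the BH3-only protein Bid, had the highest log2 ratio of the list, 0.80.

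The AAR genes were, as a group, lower with *gcn2* MO. Of the 45 genes in the list, 40 had a ratio below 0, the median log2 ratio was −0.37, 8 were at least 2-fold higher with *perk* MO, against 1.51% of all genes, and 0 with *gcn2* MO. The 8 genes were mostly transcription factors of the integrated stress response. *ddit3*, coding for Chop, was at 9.19 CPM with *gcn2* MO, 40.9 CPM with *perk* MO and 19.8 CPM uninjected, a 4.45-fold higher level with *perk* MO (3.93 to 5.04). *atf5b*, coding for a bZIP factor whose mammalian counterpart is translated when eIF2α is phosphorylated, was at 25.4, 101 and 32.4 CPM in the same order. *atf5a*, its paralog, was at 12.2, 37.7 and 15.9 CPM. These 3 genes were lower in the *gcn2* MO library than in uninjected siblings and higher in the *perk* MO library.

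*atf4b*, 1 of the 2 zebrafish genes for Atf4, was at 212 CPM with *gcn2* MO, 620 CPM with *perk* MO and 303 CPM uninjected, and was 2.92-fold higher with *perk* MO (2.84 to 3.0). *atf3*, an Atf4 target, was at 7.24, 17.7 and 12.5 CPM, and *jdp2b*, coding for a related bZIP repressor, at 3.90, 8.35 and 5.87 CPM. The remaining members past 2-fold were *igfbp1a*, coding for a binding protein of insulin-like growth factors, at 16.0, 40.2 and 25.7 CPM, and *bcat1*, the cytosolic branched-chain aminotransferase, at 3.67, 9.65 and 6.25 CPM. Of the 8 genes, *igfbp1a* and *bcat1* were also at least 2-fold higher with *perk* MO in *tars*-/-. *igfbp1a* was at 64.2 CPM with *gcn2* MO against 283 CPM with *perk* MO in *tars*-/-, and *bcat1* at 17.5 and 76.6 CPM. Over the AAR list the median log2 ratio in *tars*-/- was −0.98, and 21 of the 45 genes were 2-fold higher with *perk* MO there, against 2.03% of all genes. In that pair 35 AAR genes had a ratio below 0 and 10 a ratio above 0. Single AAR genes thus differed between the genotypes in direction as well as in size. *ddit3* and *atf4b*, higher with *perk* MO in siblings, had the opposite sign in *tars*-/-, with log2 ratios of 0.33 and 0.26. *sesn2* codes for a sestrin that reports leucine to mTORC1 in mammalian cells. It kept its direction, at 6.87 and 10.2 CPM in the sibling pair and at 18.9 and 97.9 CPM in *tars*-/-.

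Cytosolic tRNA synthetase genes, many of them Atf4 targets, lay in the same direction by smaller amounts. Of 21 analysed genes 19 had a ratio below 0, against 46.7% of all genes, with a median log2 ratio of −0.46. At 2-fold apart there were 0, against 3.36% of all genes. In *tars*-/- all 21 had a ratio below 0, with a median of −0.71. The largest difference was in *iars*, for isoleucyl-tRNA synthetase, at 82.4 CPM with *gcn2* MO, 163 CPM with *perk* MO and 60.8 CPM uninjected. *farsa*, for a phenylalanyl-tRNA synthetase subunit, was at 55.1, 98.5 and 60.9 CPM, and *rars*, for arginyl-tRNA synthetase, at 44.8, 78.3 and 34.5 CPM. The 81 cytosolic ribosomal protein genes had a median of −0.15, with 68 below 0, against 46.7% of all genes. Of the 81, 0 were 2-fold apart, against 3.36% of all genes.

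The list of ER chaperone and UPR genes lay on the other side of 0. It leaves out *ddit3*, *atf3* and *atf4b*, which are among the genes that the paper names as shared between AAR and UPR. They were counted above as AAR genes and were at least 2-fold higher with *perk* MO. Of other genes so named, *igfbp1a* had a log2 ratio of −1.30, but *eif2s1a* and *eif2s1b* only −0.16 and −0.04. Also outside the ER chaperone and UPR list is *serpinh1b*, for the collagen chaperone Hsp47, counted with the heat shock genes below. Of 39 analysed genes 36 had a ratio above 0, and the median log2 ratio was 0.30. In this list 1 gene was at least 2-fold higher with *gcn2* MO, against 1.85% of all genes. *calr*, coding for the calcium-binding lectin chaperone calreticulin, was that gene, at 108 CPM with *gcn2* MO, 53.9 CPM with *perk* MO and 91.9 CPM uninjected. *hsp90b1*, the ER member of the Hsp90 family, was at 352, 177 and 277 CPM, just under the threshold with a log2 ratio of 0.99. *hspa5*, coding for the ER chaperone BiP, was at 496, 338 and 473 CPM, 1.47-fold higher with *gcn2* MO (1.43 to 1.5). The protein disulfide isomerase genes *pdia4* and *pdia3* had log2 ratios of 0.79 and 0.74, and *sdf2l1*, an ER quality control gene, 0.84. For the chaperones *calr*, *hsp90b1* and *hspa5* uninjected siblings lay between the 2 injected libraries and nearer to the *gcn2* MO library. In *tars*-/- the median of the list was −0.23, and *hspa5* was at 283 CPM with *gcn2* MO against 345 CPM with *perk* MO.

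**Figure D3:**
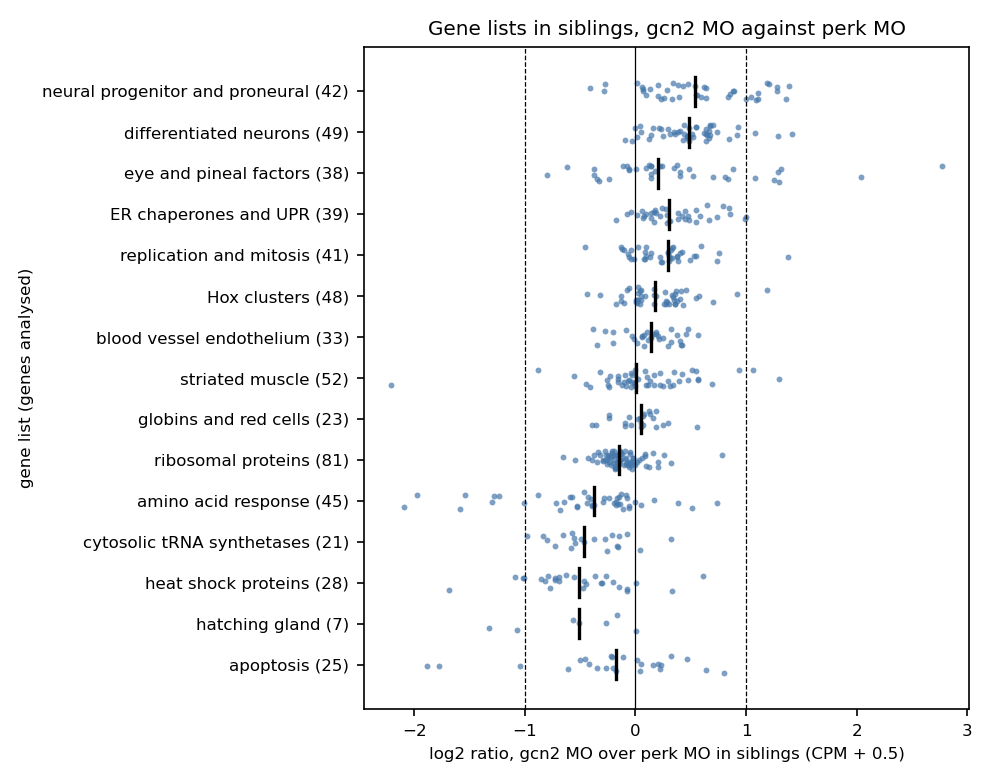
Log2 ratio of *gcn2* MO over *perk* MO in siblings (x axis, 0.5 CPM added) for the analysed genes of 15 lists (y axis, number of genes in brackets), 1 point per gene, with the list median as a bar. Dashed lines mark 2-fold differences; the medians run from −0.51 for heat shock and hatching gland genes to 0.54 for neural progenitor and proneural genes.

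Genes of the developing nervous system were higher with *gcn2* MO. The library comes from whole embryos, so fewer cells of a type and less RNA per cell cannot be told apart for these and the other tissue genes. Among 42 neural progenitor and proneural genes 39 had a ratio above 0, the median log2 ratio was 0.54, 10 were at least 2-fold higher with *gcn2* MO, against 1.85% of all genes, and 0 with *perk* MO. The list maximum was in 1 copy of *her4.2*, a Notch-dependent repressor gene of the *her4* cluster. It was at 138 CPM with *gcn2* MO, 52.3 CPM with *perk* MO and 137 CPM uninjected under 1 identifier, and at 106, 49.6 and 113 CPM under another, and these near-identical copies may share reads. *her13*, another hairy-related repressor gene, was at 63.0, 25.6 and 69.5 CPM. In each case the *gcn2* MO library was close to the uninjected siblings and the *perk* MO library well below both.

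*fabp7a*, coding for a fatty acid binding protein of radial glia, was at 161 CPM with *gcn2* MO, 65.9 CPM with *perk* MO and 220 CPM uninjected. *neurod4* and *insm1a*, genes for factors that drive neuronal differentiation, were at 138 and 200 CPM with *gcn2* MO and at 63.8 and 92.5 CPM with *perk* MO. *neurod6b*, for a later bHLH factor, was at 14.9, 5.51 and 14.6 CPM in the *gcn2* MO, *perk* MO and uninjected siblings, a ratio of 2.70 (2.27 to 3.24). All 3 *scratch* genes, which code for zinc finger repressors expressed in newborn neurons, were at least 2-fold higher with *gcn2* MO, with *scrt1a* at 76.5, 27.1 and 121 CPM and *scrt1b* at 6.98, 1.64 and 14.2 CPM. *otpa* and *otpb*, orthopedia homeobox genes of hypothalamic neurons, had log2 ratios of 1.73 and 1.46. The *scratch* and orthopedia families were picked after their values had been seen, so their counts describe these libraries alone. Over all genes 1.85% were at least 2-fold higher with *gcn2* MO.

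Differentiated neurons followed the same direction. Of 49 neuronal genes 46 had a ratio above 0, the median was 0.48, and 3 were 2-fold higher with *gcn2* MO, against 1.85% of all genes. *gad2*, coding for an enzyme that makes the inhibitory transmitter GABA, was at 27.8 CPM with *gcn2* MO, 10.1 CPM with *perk* MO and 43.6 CPM uninjected, a ratio of 2.74 (2.41 to 3.13). *nefla*, a neurofilament gene, was at 5.29, 1.87 and 5.76 CPM, and *dpysl3*, whose product guides growing axons, at 139, 65.5 and 185 CPM. The summed level of the neuronal list was 3119 CPM with *gcn2* MO, 2125 CPM with *perk* MO and 4175 CPM uninjected, so both injected libraries were below the control. In *tars*-/- the same sums were 2214 CPM with *gcn2* MO against 2946 CPM with *perk* MO, and the medians were −0.39 for neuronal genes and −0.49 for neural progenitor genes.

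Retina and pineal transcription factors were split, with 27 of 38 above 0, a median of 0.20, 7 at least 2-fold higher with *gcn2* MO, against 1.85% of all genes, and 0 with *perk* MO. *tfap2d*, coding for an AP-2 factor of retina and midbrain, had the highest log2 ratio among genes with a regular symbol and an average of at least 5 CPM in the 2 libraries, at 9.98 CPM with *gcn2* MO, 1.04 CPM with *perk* MO and 21.0 CPM uninjected, which is 9.64-fold higher with *gcn2* MO (6.67 to 14.4). *atoh7*, required for retinal ganglion cells, was at 13.3, 2.87 and 25.8 CPM and 4.65-fold higher with *gcn2* MO (3.69 to 5.92). The photoreceptor factor gene *crx* was at 3.87, 1.34 and 34.1 CPM, so that the 2 injected libraries differed 2.90-fold (2.03 to 4.23) while both lay far below the control. *otx5*, a pineal relative of *crx*, was at 4.07, 1.37 and 23.8 CPM, and *nr2e3*, a rod photoreceptor factor gene, at 1.33, 0.234 and 13.8 CPM, with a wide interval of 2.55 to 14.9 for its ratio. *vsx1*, of bipolar cells, was at 7.07, 3.07 and 32.6 CPM, and *lhx9*, a LIM homeobox gene of the brain and eye, at 29.5, 11.7 and 54.7 CPM. Early eye field genes went the other way by less than 2-fold: *rx1* was at 19.4 CPM with *gcn2* MO against 34.1 CPM with *perk* MO, and *rx3* at 3.28 and 5.31 CPM. Only 13 of 30 matched photoreceptor and pineal effector genes passed the abundance minimum, with a median of 0.34, which was −0.13 without the minimum and 0.75 at 5 CPM.

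The highest and lowest genes beyond these lists came from varied families. *rspo1*, coding for the Wnt-enhancing secreted protein R-spondin 1, was at 1.02 CPM with *gcn2* MO, 15.3 CPM with *perk* MO and 0.834 CPM uninjected, 15-fold higher with *perk* MO (10.7 to 21.8). The *tars*-/- libraries had *rspo1* at 0.338 CPM uninjected, 1.66 CPM with *perk* MO and 13.7 CPM with *gcn2* MO, so the same 2 of the 6 libraries as for *mdm2* were above 10 CPM and the rest were below 2 CPM. *cyp24a1*, coding for the enzyme that inactivates vitamin D, was at 0.848, 10.2 and 1.24 CPM in siblings with *gcn2* MO, with *perk* MO and uninjected, and *c3a.3*, a complement C3 gene, at 1.30, 17.4 and 7.48 CPM. *ano11*, of the anoctamin family, was at 4.64, 30.1 and 1.54 CPM, and *rbl2*, coding for a retinoblastoma-related cell cycle repressor, at 16.8, 78.9 and 13.0 CPM. *lnx1*, for a ubiquitin ligase of the adaptor protein Numb, was at 39.1, 154 and 21.1 CPM. *ms4a17a.10*, of a membrane protein family, was at 3.87, 20.1 and 0.935 CPM. *brf1a*, for a subunit of the RNA polymerase III initiation factor, was at 4.01, 17.6 and 3.97 CPM, and in *tars*-/- at 26.7 CPM with *gcn2* MO against 35.3 CPM with *perk* MO. *fosl1a*, of the AP-1 family, was at 1.95, 11.1 and 2.17 CPM, 5.67-fold higher with *perk* MO (4.36 to 7.46). Of the genes named here as highest with *perk* MO, *brf1a* and *atf5b* were the 2 without the opposite sign in *tars*-/-.

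Among the 15 named genes highest with *gcn2* MO, all had the opposite sign in *tars*-/-, against 96.1% of the 355 genes 2-fold higher with *gcn2* MO. *hnrnpua*, coding for an RNA-binding protein of the nuclear matrix, was at 116 CPM with *gcn2* MO, 27.3 CPM with *perk* MO and 136 CPM uninjected, 4.25-fold higher with *gcn2* MO (3.94 to 4.59). *sox12*, a SoxC gene of neural precursors, was at 53.6, 13.0 and 142 CPM. Its relatives *sox11a* and *sox11b* had log2 ratios of 0.54 and 0.71. The SoxC family was added after values had been seen. Of its 6 analysed genes, 5 had a ratio above 0 and 1 a ratio below 0. Only *sox12* was at least 2-fold higher with *gcn2* MO, against 1.85% of all genes. *ldlrad4a*, whose product dampens TGF-β signalling, was at 44.8, 10.8 and 90.9 CPM, and *klf11a*, a TGF-β inducible repressor gene, at 22.8, 5.61 and 29.2 CPM. Among 24 genes of TGF-β feedback, 7 were 2-fold higher with *gcn2* MO, against 1.85% of all genes, and 8 had a ratio below 0. This family was chosen after *ldlrad4a* and *klf11a* had been seen and includes *ldlrad4a*, so its count describes these libraries alone. The 7 include *smad7* at 45.8, 20.2 and 85.0 CPM and *pmepa1* at 9.36, 3.47 and 18.1 CPM. *apoea*, for an apolipoprotein E of the yolk layer and other tissues, was at 251, 80.5 and 250 CPM, so that *perk* MO siblings stood apart from both others. *ftcd*, an enzyme of histidine breakdown, was at 26.6, 7.25 and 25.1 CPM, *mpp3a*, of a membrane scaffold family, at 26.9, 8.78 and 33.4 CPM, and *itgbl1*, an integrin-like gene, at 11.7, 3.34 and 19.2 CPM. For 3 other genes the *gcn2* MO library lay well above both other sibling libraries. *ACTC1*, annotated as an alpha actin, was at 417, 119 and 79.9 CPM, *vtg7*, a vitellogenin gene, at 14.8, 2.70 and 5.84 CPM, and *tgm1*, a transglutaminase gene, at 10.2, 2.74 and 3.21 CPM.

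**Figure D4:**
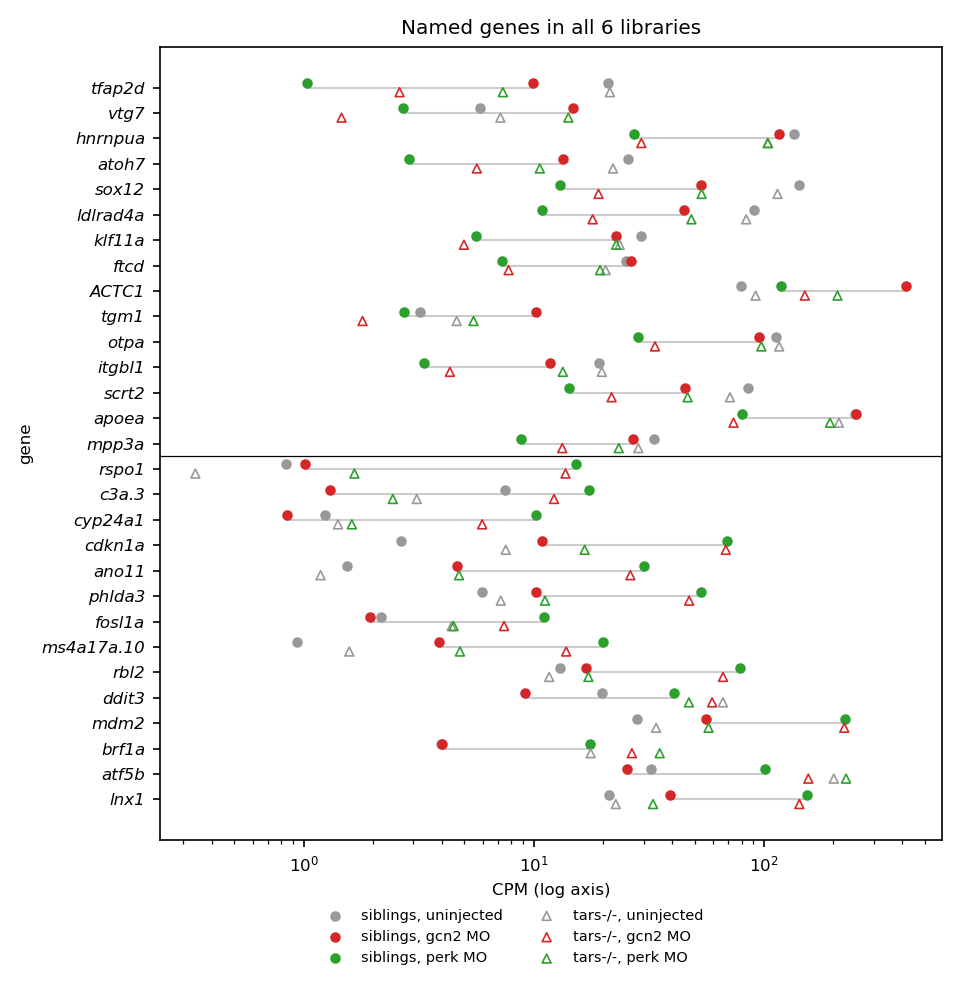
CPM on a log axis (x axis) of 29 named genes (y axis) in all 6 libraries, 1 point per library: 15 genes highest with *gcn2* MO above the line and 14 of those highest with *perk* MO below it. Filled circles are siblings and open triangles *tars*-/-, and the grey bar joins the 2 injected sibling libraries; for *mdm2* the bar runs from 55.8 to 226 CPM.

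Genes named only by a clone held some of the widest differences. They made up 3691 of the analysed genes (19.2%), 126 of the 355 genes 2-fold higher with *gcn2* MO and 73 of the 290 higher with *perk* MO. BX649245.1 was at 164 CPM with *gcn2* MO, 2.24 CPM with *perk* MO and 56.1 CPM uninjected, a ratio of 73.2 (57.6 to 94.6), and in *tars*-/- it was at 63.7 CPM uninjected, 254 CPM with *perk* MO and 4.48 CPM with *gcn2* MO. FO904959.1 was at 80.6, 1.87 and 22.9 CPM in siblings, with a ratio of 43.1 (33.1 to 57.2). For both genes the uninjected libraries lay between the injected ones in each genotype. CU927934.3 was at 1.38, 32.4 and 2.65 CPM and 23.4-fold higher with *perk* MO (17.6 to 31.9), and si:dkey-204l11.1 at 6.84, 80.8 and 1.26 CPM. The 5 clone-named genes highest with *gcn2* MO had ratios from 7.54 to 73.2, and the 5 highest with *perk* MO had ratios of *perk* MO over *gcn2* MO from 7.79 to 23.4. No function is annotated for them in the files.

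Proteases of the hatching gland, the organ that releases enzymes to soften the egg envelope, were higher with *perk* MO. Of 8 matched markers 7 passed the abundance minimum. The summed level of the 8 was 4088 CPM with *gcn2* MO, 7154 CPM with *perk* MO and 1781 CPM uninjected. In *tars*-/- it was 7645 CPM with *gcn2* MO against 3436 CPM with *perk* MO. *he1a*, a hatching enzyme gene, was at 1424 CPM with *gcn2* MO, 2106 CPM with *perk* MO and 673 CPM uninjected, and its near-identical neighbour *he1b* at 846, 1208 and 392 CPM. *ctslb*, coding for a cathepsin L of the gland, is a symbol of 2 gene identifiers, with 553 and 1381 CPM for the first and 1077 and 2257 CPM for the second in the *gcn2* MO and *perk* MO libraries. The gland's transcription factor gene *klf17* was at 12.2, 14.8 and 11.1 CPM, nearer to equality than the proteases. The hatching gland sum was thus highest in the same 2 libraries as *mdm2* and the ribosomal RNA share, and the part of the hatching gland or of developmental stage in the other differences was not tested.

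Heat shock genes were mostly higher with *perk* MO, with 25 of 28 below 0, against 46.7% of all genes, a median of −0.51 and 4 at least 2-fold higher with *perk* MO, against 1.51%. *serpinh1b*, coding for the collagen chaperone Hsp47, was at 342 CPM with *gcn2* MO, 1101 CPM with *perk* MO and 876 CPM uninjected, 3.22-fold higher with *perk* MO (3.15 to 3.29). *dnajb1b*, for an Hsp40 co-chaperone, was at 17.4, 37.4 and 64.9 CPM, and *hsp70.2*, a stress-inducible Hsp70 gene, at 14.2, 29.0 and 68.8 CPM, so for these genes both injected libraries were below the uninjected siblings. *hspb11*, a small heat shock gene, was at 1.78, 4.11 and 2.1 CPM. AP-1 genes, a family added after *fosl1a* had been seen, included 4 of 9 at least 2-fold higher with *perk* MO, against 1.51% of all genes. *fosl1a* itself is among the 4. Of the others, *fosab* was at 5.31, 20.1 and 12.7 CPM, *fosl2* at 11.9, 33.4 and 12.6 CPM and *junbb* at 25.2, 68.5 and 40.9 CPM.

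Of 29 interferon and innate signalling genes matched, 13 passed the abundance minimum, with a median of −0.40 and 4 at least 2-fold higher with *perk* MO, against 1.51% of all genes. Without the abundance minimum the median was −0.18. *isg15*, an interferon-induced ubiquitin-like gene, rests on 5 reads with *gcn2* MO and 67 with *perk* MO, or 0.141 and 2.24 CPM, a ratio of 15.8 for *perk* MO over *gcn2* MO (6.46 to 50.3). *socs3a*, a feedback inhibitor of cytokine signalling, was at 2.43 and 8.75 CPM under 1 of its 2 identifiers and at 2.57 and 8.01 CPM under the other. Both identifiers count among the 4 past 2-fold. *irf9*, coding for a subunit of the interferon-activated factor, was at 2.52 and 6.44 CPM. Leukocyte markers had a median of 0.12, with *ctss2.1*, a cathepsin S gene, at 40.3 and 89.0 CPM and *mmp9*, a matrix protease gene, at 6.47 and 14.0 CPM. These were the 2 of 22 leukocyte genes past 2-fold, against 1.51% of all genes higher with *perk* MO. In contrast *ptprc*, coding for the pan-leukocyte antigen CD45, was at 1.5 CPM with *gcn2* MO against 0.534 CPM with *perk* MO.

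Lists of other tissues had medians from −0.19 to 0.14, against 0.03 over all genes. The muscle list held 2 genes at least 2-fold higher with *gcn2* MO and 1 higher with *perk* MO. The collagen and matrix list held 1 and 1, and every other list of this paragraph held at most 1. Over all genes 3.36% were 2-fold apart in either direction. The medians were 0.01 for 52 striated muscle genes, 0.05 for 23 red cell genes, 0.02 for 45 lens crystallin genes, −0.02 for 24 pigment cell genes and 0.07 for 37 collagen and matrix genes. They were 0.05 for 28 notochord and cartilage genes, 0.14 for 32 digestive genes, −0.06 for 24 kidney and ionocyte genes and −0.19 for 14 heart genes. The 29 epidermis genes were evenly split, with 14 above and 15 below 0. The signs of the medians nearest 0 depend on the scaling or filter. Some single genes stood out. *acta1a* and *acta1b*, skeletal alpha actin genes whose near-identical sequences may share reads, were 2.46-fold (2.41 to 2.51) and 2.09-fold (2.07 to 2.12) higher with *gcn2* MO. *tcap*, a stretch-sensitive gene of the muscle Z-disc, was at 1.24 CPM with *gcn2* MO against 7.55 CPM with *perk* MO. *fn1b*, a fibronectin gene, was at 309 CPM with *gcn2* MO, 1035 CPM with *perk* MO and 259 CPM uninjected, 3.35-fold higher with *perk* MO (3.28 to 3.42). *lhx1a*, of kidney precursors and neurons, was at 47.0, 17.2 and 87.7 CPM, and *col17a1a*, of the epidermal hemidesmosome, at 87.7, 34.9 and 125 CPM.

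Blood vessel genes, which mark the tissue whose growth the study followed, had a median of 0.14 over 33 genes. Of these, 25 were above 0 and 0 were 2-fold apart. Over all genes 53.3% were above 0 and 3.36% were 2-fold apart. *kdrl*, the endothelial receptor for Vegf, was at 69.8 CPM with *gcn2* MO, 47.0 CPM with *perk* MO and 87.3 CPM uninjected, and *fli1a*, an endothelial ETS factor gene, at 46.9, 34.1 and 46.4 CPM. Hox genes had a median of 0.18, with 40 of 48 above 0. *hoxa9a* alone was past 2-fold, at 18.8 and 7.95 CPM, against 1.85% of all genes higher with *gcn2* MO. Replication and mitosis genes had a median of 0.29, with 32 of 41 above 0. *rrm2* codes for the small subunit of ribonucleotide reductase. Under 1 identifier it was at 243 CPM with *gcn2* MO against 93.1 CPM with *perk* MO. That entry was the single gene of the list past 2-fold, against 1.85% of all genes higher with *gcn2* MO. Under the other identifier *rrm2* was at 384 and 227 CPM. The 13 mitochondrially encoded protein genes had a median of 0.23.

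Genes of RNA turnover and metabolism mostly differed by small amounts. The 51 genes of deadenylation, decapping and the exosome had a median of −0.04, and the 13 nonsense-mediated decay factors −0.02. In either list 0 genes were 2-fold apart, against 3.36% of all genes. Among the 51 genes, *exosc5* and *exosc2*, exosome subunit genes, had the largest differences, with log2 ratios of −0.72 and −0.68. The 45 hypoxia and glycolysis genes had a median of −0.17, and 1 was at least 2-fold higher with *perk* MO, against 1.51% of all genes. *egln2*, coding for an oxygen-sensing prolyl hydroxylase, was at 3.11 CPM with *gcn2* MO, 7.75 CPM with *perk* MO and 8.37 CPM uninjected. *egln3*, a relative, was at 1.38, 3.14 and 3.84 CPM. Of 5 *egln* genes, a family added after values had been seen, 4 had a ratio below 0 and 1 a ratio above 0. Among 29 sterol and lipid synthesis genes the median was 0.02, and *hmgcra*, coding for the enzyme that commits to cholesterol synthesis, was at 2.23, 7.98 and 2.81 CPM. *hmgcra* was also higher with *perk* MO in *tars*-/-, at 7.59 CPM with *gcn2* MO against 16.9 CPM with *perk* MO. It was thus 1 of the 6 genes 2-fold apart in the same direction in both genotypes, all of them higher with *perk* MO. The others were *igfbp1a*, *bcat1*, *isg15*, *rhbdd1*, of the rhomboid protease family, and si:rp71-80o10.4. Of these 6, *igfbp1a* and *bcat1* are in the AAR list.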

How the data were processed

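Per the labels and methods, total RNA was extracted with TRIzol, libraries were made with a NEBNext Ultra kit, HISAT2 (version 2.0.5) placed the reads on GRCz10 and HTSeq (version 0.9.1) counted them per Ensembl gene (release 91); the strand setting is not given in the sources used here. The authors deposited, per library, raw read counts of 34326 genes, gene lengths, and FPKM, which equal counts over length and library total within a relative deviation of 5e-06. The depth was 29949451 to 47516784 counted reads per library.

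Counts were divided by the library total to give CPM with Python 3.11.15 and pandas 2.3.3. Genes averaging 1 CPM or more across all 6 libraries were kept, 0.5 CPM was added before log2, and genes at least 2-fold apart were counted. Intervals of ratios came from scipy 1.17.1. The procedure was tested on simulated data. No tests between conditions were run, since each has 1 library. Alternatives used TMM factors (edgeR 4.0.16), median-of-ratios size factors (DESeq2 1.42.0), other pseudocounts, filters and thresholds, and thinning to equal depth.

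The comparison and the 36 gene lists, written from general knowledge, were chosen with earlier results of these data known, and 7 further families were added after values had been seen. Of 1258 entries in the lists, 21 were not matched. The named genes are the 15 highest and 15 lowest ratios among genes with a regular symbol and an average of 5 CPM or more in both libraries, up to 4 members per list with the largest difference, the genes around eIF2α and *tars*, and 5 clone-named genes per direction; further members named beside them, the added families and the 6 genes in the same direction in both genotypes were chosen after their values were seen. An item that the rule names and the list that rests on it are not reported here. No morpholino or gene sequences are shown.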

Additional observations from a re-analysis of the deposited data

Results flagged for a closer look

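Differences between the *gcn2* MO and *perk* MO libraries pointed in opposite directions in the 2 genotypes for several measures. None of these differences was tested, because every condition has 1 library. The number of genes at least 2-fold apart in opposite directions in siblings and *tars*-/- was 266. For ER chaperones and UPR genes the median log2 ratio of *gcn2* MO over *perk* MO was 0.30 in siblings and −0.23 in *tars*-/-. Neural progenitor genes had medians of 0.54 and −0.49, and neuronal genes 0.48 and −0.39. Blood vessel genes had medians of 0.14 and −0.20, and Hox genes 0.18 and −0.21. In the other direction, heat shock genes had a median of −0.51 in siblings and 0.37 in *tars*-/-, and ribosomal protein genes −0.15 and 0.13. Hatching gland genes had medians of −0.51 and 0.79. The mitochondrially encoded genes had medians of 0.23 and −0.13. The AAR list is not among these, with −0.37 in siblings and −0.98 in *tars*-/-. Cytosolic tRNA synthetase genes also kept their direction, with −0.46 and −0.71, as did the genes around eIF2α, with −0.26 and −0.44.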

How the results depend on the processing

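No paired analysis was possible because each condition has 1 library and the labels give no replicate numbers. Single-gene alternatives (scaling, pseudocount, thinning) were run for the genes with the 15 highest and 15 lowest ratios, *eif2ak3* and *tars*, and none of these changed direction. Of the list medians, that of photoreceptor and pineal genes was −0.13 without an abundance filter. The medians near 0 of lens crystallin, muscle, epidermis and sterol genes changed sign under other scaling, thinning or filters, and no other list median changed sign. The count of 645 genes 2-fold apart in siblings was 325 with 2 CPM added (161 higher with *gcn2* MO, 164 with *perk* MO) and 371 among genes of at least 5 CPM (198 and 173). It was 2792 at 1.5-fold (1598 and 1194) and 52 at 4-fold (24 and 28). In *tars*-/- the count of 715 was 384 with 2 CPM added (161 and 223), 424 at 5 CPM (180 and 244), 2980 at 1.5-fold (1553 and 1427) and 87 at 4-fold (39 and 48). The median of photoreceptor and pineal genes was 0.75 at 5 CPM, and that of ribosomal protein genes −0.19 with TMM and −0.18 with median-of-ratios scaling. Scaling moved the median of all genes from 0.03 to −0.01 at most, and the correlation between the pairs ranged from −0.55 without an abundance filter to −0.67 at 5 CPM. Ratios of 11 of these genes, all with low levels in a library, moved only with 2 CPM added, as for *rspo1*, from −3.38 to −2.52. Depth limits genes near 1 CPM, where few reads stand behind a value, and the lack of replicates limits every difference.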
